A study of Mus musculus with 4 samples.

Results

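The 9 genes described here make, bind, degrade and sense retinoic acid, and they are 9 of the 21690 features in each deposited table. They are Aldh1a2, Cyp26a1, Cyp26b1, Cyp26c1, Crabp1, Crabp2, Rara, Rarb and Rarg, matched by symbol, and all 9 were found. They were chosen by their roles and by their FPKM ratios of knockdown to control in these same libraries, so those values are given as a description and none of the 9 is tested. The study sequenced RNA of neural precursors grown from a mouse embryonic stem cell line, A2lox, in which doxycycline switches on an inserted construct. Knockdown cultures carried the inducible Geminin knockdown, received 500 ng doxycycline from day 3 of monolayer culture in N2B27, a serum-free neural differentiation medium, and were harvested on day 5. The control carried the same construct, grew in the same medium to day 5 and received no doxycycline. There were 3 knockdown libraries from independent experiments, called knockdown 1, 2 and 3, and 1 control library, which has no replicate. The control shares its replicate number with knockdown 1, and the sample titles do not say whether both come from 1 experiment. Differences of knockdown 2 and 3 from the control therefore cannot be told apart from differences between experiments. Doxycycline and the loss of Geminin cannot be told apart, since no culture given the drug without the construct was used here.

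Retinoic acid is a small lipid made from vitamin A. In the embryo Aldh1a2 encodes the dehydrogenase that carries out the last step of its synthesis, and the Cyp26 cytochrome P450 enzymes oxidise it for removal. Crabp1 and Crabp2 encode small proteins that carry it inside the cell, and Rara, Rarb and Rarg encode nuclear receptors that bind DNA as partners of the retinoid X receptors. In the developing nervous system the balance of synthesis and removal sets position along the head to tail axis, and stem cell cultures are often given retinoic acid to drive neural differentiation. Rarb and Cyp26a1 are textbook target genes of the pathway they belong to.

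The receptors bind direct repeats of a 6-base unit, and the promoters of Rarb and Cyp26a1 are shown here because both hold such a repeat close to the start of the gene. RefSeq windows on GRCm38.p6, a later build than the mm9 of the study, were found for 8 of the 9 genes, each covering 250 bases before the start and 50 after it. The unit AGGTCA was searched together with its variants, namely GGGTCA as well as AGTTCA and also GGTTCA, on both strands and with a spacer of 1, 2 or 5 bases. The 150 bases before the start of each gene follow, 5′ to 3′ on the strand of the gene, with the units of a repeat with a spacer of 5 in capitals. The Cyp26b1 promoter is given beside them because this gene had the lowest levels relative to the control and its window held no such repeat.
Rarb, chr14:16575477-16575626, minus strand: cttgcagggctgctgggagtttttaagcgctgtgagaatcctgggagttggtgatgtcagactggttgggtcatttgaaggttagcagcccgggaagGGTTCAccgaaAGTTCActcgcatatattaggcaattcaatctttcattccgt
Cyp26a1, chr19:37697658-37697807, plus strand: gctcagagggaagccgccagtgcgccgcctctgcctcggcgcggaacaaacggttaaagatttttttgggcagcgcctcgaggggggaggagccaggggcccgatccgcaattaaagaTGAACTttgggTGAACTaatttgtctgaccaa
Cyp26b1, chr6:84593811-84593960, minus strand: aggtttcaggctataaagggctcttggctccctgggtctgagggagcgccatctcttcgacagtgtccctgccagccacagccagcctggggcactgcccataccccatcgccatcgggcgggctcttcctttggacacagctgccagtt

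The Rarb repeat spans bases -53 to -37 from the start on the strand of the gene. The Cyp26a1 repeat spans bases -32 to -16 and lies on the opposite strand, so that it reads as the reverse complement in the run printed above. Read along the strand of each match, they differ in the first base of the first unit and in 1 base of the spacer, and 15 of the 17 bases are the same.
Rarb repeat: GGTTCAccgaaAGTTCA
Cyp26a1 repeat: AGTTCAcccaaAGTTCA
Of 32817 promoter windows of the same length, 32 hold a repeat with a spacer of 5, which is 0.0975%. Repeats with a spacer of 1 or 2, held by 0.222% and 0.268% of windows, were in none of the windows of the 8 genes. A single unit occurs in 43.7% of all windows and was found for Cyp26a1, Rara, Rarb and Rarg. A match says only that these letters are present. In every knockdown library Rarb was above the control and Cyp26a1 below it, as the values below show. Neither met the rule by which the study calls a gene, which is given below. All knockdown libraries lay on 1 side of the control for 45.6% of 11968 features tested. The part of the repeat in the levels of Rarb and Cyp26a1 was not tested.

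Levels are given in FPKM, which corrects fragment counts for the length of a transcript and for sequencing depth, so they can be compared between genes. Relative to the control, depth was 1.00, 1.15 and 0.972 in knockdown 1, 2 and 3. Gmnn, which encodes Geminin, had 27.0, 65.9 and 27.9 FPKM in knockdown 1, 2 and 3, against 113 in the control. It carried a significant Cuffdiff mark as lower in knockdown 1 and 3 and no mark in knockdown 2. By the rule of the study, a significant Cuffdiff mark in at least 2 of 3 tables in 1 direction, 286 features were higher and 131 lower. Of these 417, 370 were marked in knockdown 2 and 3 only. Because all 3 tables use the same control library, their ratios are not independent. Markers of neural precursors were present in every library: all 12 were above 0, and 0 of 12 were called by the study's rule. Sox2, whose locus overlaps Sox2ot, had 140, 203 and 154 FPKM in the knockdown libraries and 135 in the control. The next genes are named after their values were seen. Sox1 was below the control in every knockdown library, at 63.8, 42.5 and 48.8 FPKM against 64.0. Hes5 was marked as lower in knockdown 1, and Notch1 as higher in knockdown 3. A level above 0 does not give the share of precursors in a culture.

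Most lists of markers for other cell types differed from the control, mainly in knockdown 2 and 3, and their part in the results below was not tested. Summed pluripotency markers had 86.8, 342 and 559 FPKM in knockdown 1, 2 and 3, against 62.5 in the control, with 9 of 12 genes higher by the study's rule and Nr0b1 at 0 in the control. Summed neuron markers had 191, 620 and 324 FPKM against 182, with 5 of the 11 genes found by symbol higher. Not all of them rose: Stmn2, named after its values were seen, had 75.4, 44.6 and 40.5 FPKM against 66.9. It was marked as lower in knockdown 3. Summed epithelial markers had 532, 63.0 and 175 FPKM against 479, with 10 of 12 genes lower. Summed markers of the feeder fibroblasts on which the stem cells had been kept had 37.8, 59.3 and 89.9 FPKM against 34.8, with 3 of 12 higher and Lum at 0 in knockdown 3 and the control. Summed mesoderm and endoderm markers had 59.0, 60.7 and 74.7 FPKM against 59.4, with 0 of 12 called and Mesp1 and Msgn1 at 0 in all 4 libraries. Among the most abundant markers, Dppa5a had 32.8, 184 and 286 FPKM against 19.9, Nefm had 17.6, 198 and 74.2 against 15.6, and Krt18 had 176, 15.1 and 59.7 against 155.

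**Figure D1:**
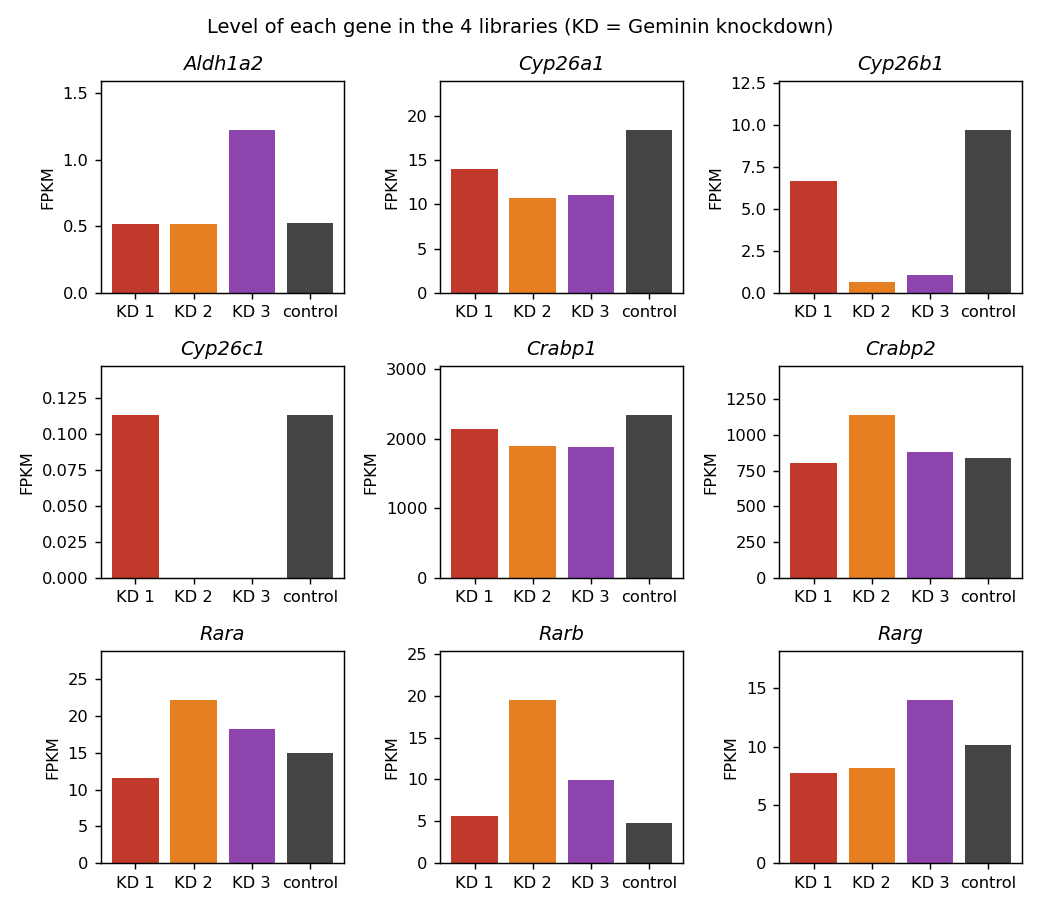
FPKM of the 9 retinoic acid genes, 1 panel per gene with its own axis starting at 0, in knockdown (KD) 1, 2 and 3 and the control; each bar is 1 library. Cyp26b1 is at 0.645 and 1.08 FPKM in knockdown 2 and 3 against 9.73 in the control, and Rarb is above the control in all 3 knockdown libraries.

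The enzyme of synthesis was barely detected. Aldh1a2, on chromosome 9 from 71063595 to 71144050 (mm9), had 0.519, 0.516 and 1.22 FPKM in knockdown 1, 2 and 3, against 0.520 in the control. Knockdown 1 and 2 were at 99.7% and 99.1% of the control, and knockdown 3 was above it. The deposited values change in steps of whole reads, and the smallest whole numbers that match them in all 3 tables were 7, 8 and 16 reads in knockdown 1, 2 and 3 and 7 reads in the control. The ratios alone would also allow multiples of such counts, with narrower intervals. At the smallest counts, the error of the natural log ratio expected from counting was 0.535 for Aldh1a2 in knockdown 1, and the Cuffdiff statistic of that table implies 0.535. The 95% exact Poisson interval was 9.15 to 26.0 for the 16 reads and 2.81 to 14.4 for the 7 reads, so the intervals overlap. Here and for the genes that follow, reads are those of each library, not corrected for its depth, and intervals cover counting error only.

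Of the genes of retinoic acid removal, Cyp26b1 and Cyp26a1 were below the control in every knockdown library, and Cyp26c1 was close to undetected. Cyp26b1, on chromosome 6 from 84521407 to 84543902 (mm9), had 6.67, 0.645 and 1.08 FPKM in knockdown 1, 2 and 3, against 9.73 in the control. All 3 knockdown libraries were below the control, knockdown 1 at 68.6% of it and knockdown 2 and 3 at 6.63% and 11.1%. The mean was 28.8% ± 34.6 of the control (SD, n = 3). On the log2(FPKM + 1) scale, which understates changes of low genes, the ratios were -0.48, -2.70 and -2.37, with a mean of -1.85 ± 1.20 (SD, n = 3). Without knockdown 1 the mean was -2.54, and without knockdown 2 it was -1.42. In bulk RNA, fewer cells that express a gene and less RNA per cell cannot be told apart.

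The Gmnn and Cyp26b1 levels of the 3 knockdown libraries are set side by side here, with no test. Gmnn is given as RNA at harvest, not as Geminin protein. Knockdown 1 and 3 had 27.0 and 27.9 FPKM of Gmnn, while their Cyp26b1 was 6.67 and 1.08 FPKM. Knockdown 2 kept 58.4% of the Gmnn of the control and had the lowest Cyp26b1. The summed epithelial markers given above were also lowest in knockdown 2, next in knockdown 3 and near the control in knockdown 1. The part of the Gmnn level or of these markers in the Cyp26b1 values was not tested.

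Cyp26a1, on chromosome 19 from 37772297 to 37776026 (mm9), had 14.0, 10.7 and 11.1 FPKM in knockdown 1, 2 and 3, against 18.4 in the control. Every knockdown library was below the control, at 76.1%, 58.0% and 60.1% of it, with a mean of 64.7% ± 9.90 (SD, n = 3). The smallest whole numbers that match these values were 145, 127 and 111 reads in knockdown 1, 2 and 3 and 190 reads in the control. For these the error of the natural log ratio in knockdown 1 was 0.110 from counting and 0.116 by the Cuffdiff statistic. The 95% exact Poisson interval was 164 to 219 for the control and reached up to 171 in knockdown 1. In knockdown 2 and 3 it reached up to 151 and 134 reads. In log2 units the Cuffdiff statistic implies errors of 0.17, 0.40 and 0.37 in knockdown 1, 2 and 3, larger in the last 2. These intervals cover counting error only and are no test of a difference, and Cyp26a1 carried no mark. The mean log2 ratio was -0.60 ± 0.20 (SD, n = 3).

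Cyp26c1 lies beside Cyp26a1 on chromosome 19, from 37760169 to 37767797 (mm9), with 4499 bases and no other feature of the tables between them. It rested on 1 read in knockdown 1, at 0.113 FPKM, and was listed at 0 in knockdown 2 and 3, against 1 read in the control, at 0.113 FPKM. A count of 0 allows up to 3 reads, so no difference was detectable at this depth. Cyp26c1 and Aldh1a2 were the only 2 of the 9 genes below a mean of 1 FPKM, and neither had a usable test in at least 2 tables.

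Summed over the 3 enzymes, the Cyp26 level was 20.8, 11.3 and 12.2 FPKM in knockdown 1, 2 and 3, against 28.3 in the control, or 52.2% ± 18.6 of it (SD, n = 3). The makeup differed as well. Cyp26b1 gave 32.0%, 5.69% and 8.88% of the sum in knockdown 1, 2 and 3, against 34.4% in the control. The level of Cyp26a1 was 2.10, 16.6 and 10.3 times that of Cyp26b1 in the knockdown libraries, against 1.90 times in the control.

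**Figure D2:**
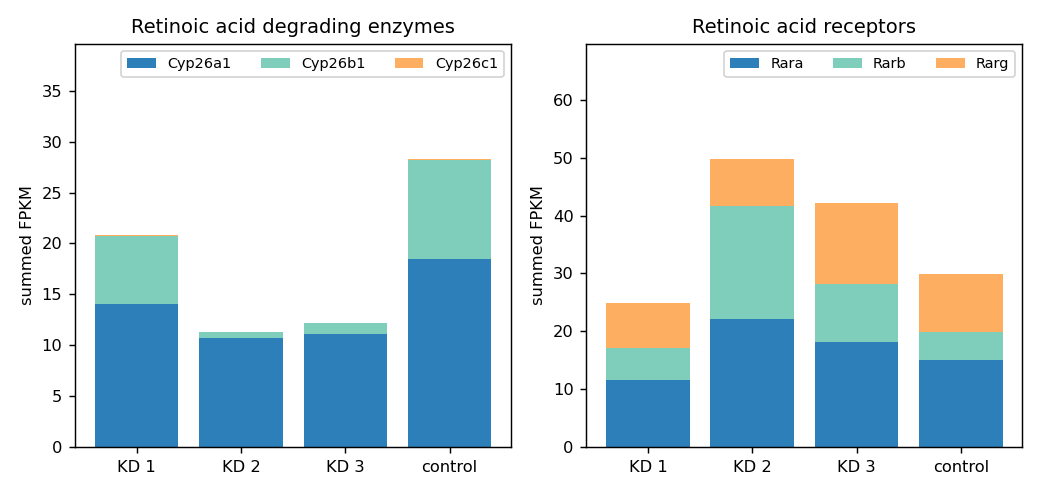
Stacked bars of summed FPKM in knockdown (KD) 1, 2 and 3 and the control, on the left for the Cyp26 enzymes and on the right for the retinoic acid receptors; each colour is 1 gene and each bar 1 library. The Cyp26 sum is 11.3 and 12.2 FPKM in knockdown 2 and 3 against 28.3 in the control, and the Rarb part of the receptor sum is widest in knockdown 2.

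The carriers were the most abundant of the 9 genes in every library. Crabp1, on chromosome 9 from 54612614 to 54620916 (mm9), had 2140, 1891 and 1873 FPKM in knockdown 1, 2 and 3, against 2339 in the control. Each knockdown library was below the control, and the mean was 84.1% ± 6.38 of it (SD, n = 3). Among features above 0 in the control, Crabp1 stood at percentile 99.8. The standard error that the Cuffdiff statistic implies for its ratio was 0.17, 0.73 and 42.44 log2 units in knockdown 1, 2 and 3.

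Crabp2, on chromosome 3 from 87752614 to 87757294 (mm9), had 804, 1141 and 880 FPKM in knockdown 1, 2 and 3, against 843 in the control. Knockdown 1 was just below the control, knockdown 3 just above it and knockdown 2 clearly higher, so the groups overlap. The mean log2 ratio was 0.14 ± 0.26 (SD, n = 3) and turned to -0.00 without knockdown 2. Crabp2 encodes the carrier known to hand retinoic acid to the receptors in the nucleus. Crabp1 exceeded Crabp2 by 2.66, 1.66 and 2.13 times in knockdown 1, 2 and 3, against 2.78 times in the control. Their sum was 91.5% ± 4.49 of the control (SD, n = 3).

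Among the receptors, Rarb was above the control in all 3 knockdown libraries, while Rara and Rarg lay on both sides of it. Rarb, on chromosome 14 from 17263353 to 17407724 (mm9), had 5.59, 19.5 and 9.94 FPKM in knockdown 1, 2 and 3, against 4.77 in the control. The values stood at 117%, 409% and 208% of the control, with a mean of 245% ± 149 (SD, n = 3). The smallest whole numbers that match them were 94, 377 and 162 reads in knockdown 1, 2 and 3 and 80 reads in the control. For these the error of the natural log ratio in knockdown 1 was 0.152 from counting and 0.156 by the Cuffdiff statistic. In log2 units that statistic implies an error of 0.22 in knockdown 1 and a larger one, 0.41, in both knockdown 2 and 3. In knockdown 1 the 95% exact Poisson interval was 76.0 to 115 reads, and in the control it was 63.4 to 99.6. It was 340 to 417 in knockdown 2 and 138 to 189 in knockdown 3. These intervals cover counting error only and are no test of a difference, and Rarb carried a mark in knockdown 2 only.

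The mean log2 ratio of Rarb was 0.98 ± 0.82 (SD, n = 3), and it was 0.56 without knockdown 2 and 1.38 without knockdown 1. Rarb was highest in knockdown 2, where the summed neuron markers were highest, and knockdown 3 came next for both. The neuron marker Stmn2 was instead below the control in knockdown 2 and 3. Summed pluripotency markers were higher in knockdown 3 than in knockdown 2. The part of these cell type markers in the Rarb values was not tested.

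Rara, on chromosome 11 from 98799009 to 98836256 (mm9), had 11.5, 22.2 and 18.2 FPKM in knockdown 1, 2 and 3, against 15.0 in the control. Knockdown 1 was below the control and the other libraries above it. The mean log2 ratio of 0.14 ± 0.46 (SD, n = 3) became -0.05 without knockdown 2. Rarg, on chromosome 15 from 102065370 to 102087914 (mm9), had 7.76, 8.12 and 14.0 FPKM in knockdown 1, 2 and 3, against 10.2 in the control. Here knockdown 1 and 2 were below the control and knockdown 3 above it. The mean was -0.07 ± 0.43 (SD, n = 3), which became -0.32 without knockdown 3 and 0.07 without knockdown 1.

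Summed over the 3 receptors, the level was 24.9, 49.8 and 42.1 FPKM in knockdown 1, 2 and 3, against 30.0 in the control. Knockdown 1 was lower than the control and the other 2 were higher. Rara gave the widest share in every library, 46.3%, 44.5% and 43.2% in knockdown 1, 2 and 3, against 50.2% in the control. Rarb gave 22.5%, 39.1% and 23.6% against 15.9%. It exceeded Rarg in knockdown 2 only, at 2.40 times its level, and was at 0.720 and 0.710 of it in knockdown 1 and 3, against 0.469 in the control.

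By level, the order in the control was Crabp1, Crabp2, Cyp26a1, Rara, Rarg, Cyp26b1, Rarb, Aldh1a2 and Cyp26c1, and knockdown 1 had the same order. In knockdown 2 Rara and Rarb stood above Cyp26a1, and in knockdown 3 Rara and Rarg stood above Cyp26a1 and Aldh1a2 above Cyp26b1. Over the knockdown libraries, Rara averaged 17.3 ± 5.38, Cyp26a1 11.9 ± 1.83, Rarb 11.7 ± 7.11 and Rarg 9.96 ± 3.50 FPKM (SD, n = 3). Neighbours in this order differ by no more than the larger of their SDs, although Rara was above both Rarb and Rarg in every library. Crabp1, at 1968 ± 149 FPKM, and Crabp2, at 941 ± 177, stood apart from them and from each other.

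**Figure D3:**
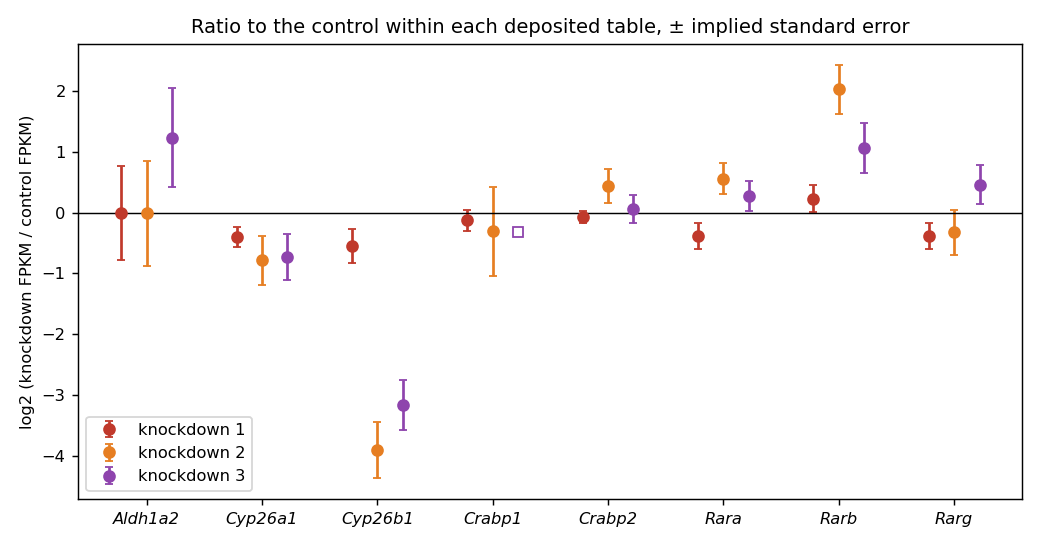
Log2 of knockdown FPKM over control FPKM within each deposited table for 8 genes (Cyp26c1 is left out, being listed at 0 in knockdown 2 and 3), with the standard error that the Cuffdiff statistic implies; the open square marks Crabp1 in knockdown 3, whose error of 42.44 log2 units is not drawn. Cyp26b1 in knockdown 2 and 3 lies farthest below 0 and Rarb in knockdown 2 farthest above it.

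Of the 9 genes, 7 had usable tests and a mean of at least 1 FPKM. The authors' deposited tables marked Cyp26b1 as lower in knockdown 2 and 3 and Rarb as higher in knockdown 2. No other of the 9 genes carried a mark, and none did in the table of knockdown 1. Over all features with a usable test, marks of lower expression were on 1.52%, 2.02% and 1.28% in the tables of knockdown 1, 2 and 3, and marks of higher expression on 0.909%, 3.23% and 3.33%. Cyp26b1 was thus the 1 gene that met the study's rule, where 0.905% of 14477 usable features were lower and 1.98% higher. With knockdown 2 or knockdown 3 left out, 0 of the 9 met it. All 3 knockdown libraries were on 1 side of the control for 4 of the 7 genes, Cyp26a1, Cyp26b1 and Crabp1 below it and Rarb above it. The same held for 45.6% of 11968 features tested, 22.9% of them below the control and 22.7% above. Median log2 ratios of the 7 genes were -0.35, -0.29 and 0.06 in knockdown 1, 2 and 3, beside -0.02, 0.03 and 0.01 over the 11968 features.

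The features nearest to a gene in its 3 log2 ratios were sought among the 11967 other features tested, for the 3 genes of widest range. For Cyp26b1 they included Vgll3, a transcription cofactor gene, and Tnnc1, a troponin gene, at Euclidean distances of 0.39 and 0.45 log2 units. Vgll3 had 28.3, 5.14 and 5.39 FPKM in knockdown 1, 2 and 3, against 32.5 in the control. Only 4 features lay within 0.5 of Cyp26b1. For Rarb they were 2610017I09Rik, Mtap2, which encodes a microtubule protein of neurons, and Igfbpl1, at 0.19, 0.20 and 0.22. Mtap2 had 7.44, 29.4 and 15.8 FPKM against 7.28, and 41 features lay within 0.5 of Rarb. Mtap2 is an older symbol of Map2, a listed neuron marker that was not found by symbol and is not in the neuron marker sum. For Rara they were Acat1, Grcc10 and Adam11, and 1577 features lay within 0.5, so its pattern was a common one. The listed locus of Grcc10 overlaps that of Atn1, and whether they share reads was not tested.

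The other genes of retinoid supply gave no call by the study's rule. Of 18 measured, 10 could be called, 0 were higher and 0 lower, and limma, a linear model over all features tested, called 0, with 0 at an unadjusted p under 0.05. Over all 11968 features limma called 0.0251% higher and 0.1% lower, and 1.27% had an unadjusted p under 0.05. At these shares a count of 0 in so short a list says little about its genes. Median log2 ratios were 0.01, 0.04 and -0.06 in knockdown 1, 2 and 3. Adh5, an alcohol dehydrogenase, had 137, 194 and 175 FPKM against 170, and Rdh11, a retinol dehydrogenase, had 21.7, 25.4 and 23.6 against 21.0. They are the most abundant of the list. Adh5 lay on both sides of the control and was marked in knockdown 1 only, where it was lower, and Rdh11 was slightly above it in every knockdown library.

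A few genes of supply are named after their values were seen. Aldh1a1, another dehydrogenase that makes retinoic acid, had 0.961, 7.23 and 3.92 FPKM in knockdown 1, 2 and 3, against 1.34 in the control, and was marked in knockdown 2 only. Dhrs3, which turns retinaldehyde back to retinol, had 3.23, 0.701 and 0.704 FPKM against 2.87. It was low in the same libraries as Cyp26b1 and carried no mark. Rdh10, the retinol dehydrogenase of the embryo, had 7.81, 4.70 and 6.71 FPKM against 8.79, and Stra6, the vitamin A uptake receptor, had 10.1, 7.20 and 10.3 against 11.6. Both were below the control in every knockdown library, as were 22.9% of the 11968 features tested. Cyp1b1 of the same list was above it in every knockdown library, at 1.52, 1.59 and 2.53 FPKM against 1.03. Bcmo1 was listed at 0 in all 4 libraries.

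Receptor partners were nearly level. Of 15 retinoid X receptors, corepressors, coactivators and related genes, 14 could be called, 0 were higher and 0 lower by the study's rule. Limma called 0, with 1 of 14 at an unadjusted p under 0.05, beside 1.27% of all features tested. The median log2 ratios were 0.02, 0.01 and -0.01. The summed retinoid X receptors had 33.5, 45.1 and 38.0 FPKM in knockdown 1, 2 and 3, against 38.7 in the control, and Rxrg gave at most 1.22% of any sum. Fabp5, a carrier that delivers retinoic acid to another receptor, had 123, 113 and 84.3 FPKM against 133. Hdac3, a corepressor subunit, had 43.8, 47.7 and 48.7 against 59.5 and was marked in knockdown 1 only. Both were below the control in all 3 knockdown libraries, as were 22.9% of all features tested. Nrip1, a cofactor named after its values were seen, had 24.9, 15.1 and 18.0 against 27.0 and was marked in knockdown 2 only.

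Among 18 genes known to respond to retinoic acid, 16 could be called, 4 rose by the study's rule, 0 fell and 14 were not called, beside the 1.98% of all usable features that rose. Hoxb4, a homeobox gene of the hindbrain and spinal cord, had 1.75, 33.1 and 19.6 FPKM in knockdown 1, 2 and 3, against 1.62 in the control. This matched 27, 588 and 294 reads against 25. Stra8, a gene that retinoic acid induces in germ cells, had 1.59, 9.87 and 19.9 FPKM against 0.979, which matched 13, 93 and 158 reads against 8. Knockdown 1 was near the control for both genes, and the other libraries were well above it.

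Hoxd4 had 0.420, 8.23 and 3.75 FPKM against 0.398, and Hoxa4 had 1.03, 5.27 and 5.29 against 0.642. The listed locus of Hoxd4 overlaps that of Hoxd3, and the listed locus of Hoxa4 overlaps those of Hoxa3, Hoxa5 and Hoxa6. The loci alone do not say whether these genes share reads. Each of the 4 genes was marked in knockdown 2 and 3 only, and 0 met the rule with either library left out. Limma called 0 of the 14 tested, with 0 at an unadjusted p under 0.05, beside 1.27% of all features tested. The list was drawn up with earlier results on these libraries known, so its direction is no independent evidence. Its median log2 ratios were 0.07, 0.27 and 0.19, beside -0.02, 0.03 and 0.01 over all features.

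Other genes of the list had other patterns. Hoxb1, named with the next genes after values were seen, had 3.75, 1.35 and 2.36 FPKM in knockdown 1, 2 and 3, against 3.92 in the control. It was below the control in every knockdown library, as were 22.9% of all features tested, and carried no mark. Nr2f1 and Nr2f2, nuclear receptors of the COUP-TF group that oppose retinoid receptors, had 33.3, 24.6 and 17.1 FPKM against 36.0, and 35.0, 24.1 and 22.4 against 37.9. Both carried a mark in knockdown 3 only. Cdx1 was listed at 0 in knockdown 2 and 3 and in the control, and Hoxb5 in knockdown 1 and the control. Of the 18 genes of the list, 10 had a promoter window, and none of these held a repeat with a spacer of 5. Only 0.0975% of all windows hold one, so its absence from so short a list says little.

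**Figure D4:**
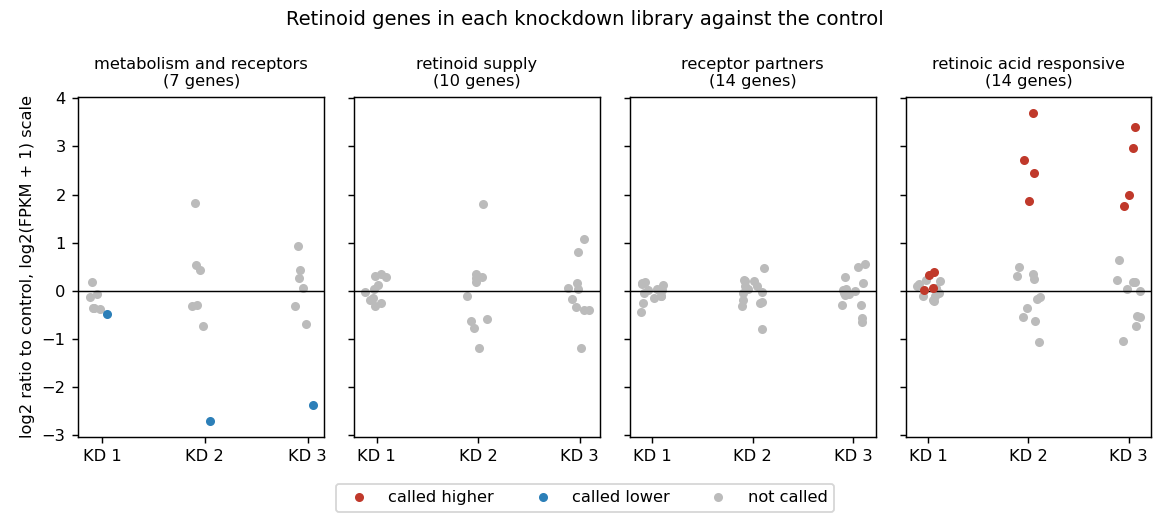
Log2 ratio to the control on the log2(FPKM + 1) scale in knockdown (KD) 1, 2 and 3 for the tested genes of the 4 retinoid lists; each point is 1 gene in 1 library, red where it was called higher by the study's rule, blue where lower and grey where not called. Red points occur among the responsive genes (Hoxa4, Hoxb4, Hoxd4 and Stra8), and the blue ones are Cyp26b1, at -0.48, -2.70 and -2.37 in knockdown 1, 2 and 3.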

How the data were processed

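RNA-seq of 3 knockdown libraries and 1 control was analysed from 3 deposited tables, each setting 1 knockdown library against the same control. The submitters' processing notes name TopHat, Cufflinks, Cuffdiff and mm9, with no version in the sources used here. The authors deposited FPKM for both libraries of a table. The deposited tables also hold a Cuffdiff statistic and a natural log ratio with the control on top, scores whose quotient gives the error of a ratio, and a mark of significance. Each mark compares 1 library with 1 library.

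Ratios were formed within a table on log2(FPKM + 1). The features entered in limma 3.58.1 (R 4.3.3) were the 11968 features with usable tests in all 3 tables and a mean of at least 1 FPKM, with a trended prior variance and Benjamini-Hochberg adjustment at 0.05. With 2 residual degrees of freedom, it takes the spread of the unreplicated control to be that of the knockdown libraries. The script was tested on simulated data. On the deposited values, the fit called 3 features higher (0.0251%) and 12 lower (0.1%), all of them short RNAs. With 3 libraries against 1, exact permutation gives p = 0.25 at the smallest in a one-sided test. Doubling that value for 2 sides gives 0.5. Exact permutation was not used.

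Reads behind a value were taken as the smallest control count, up to 500, that made all 3 ratios whole within 0.005 after the relative depths. This succeeded for 4 of the 9 genes, and absolute depth is otherwise unknown. Beyond the 9 genes and Gmnn, genes were named by rule: every called gene of a retinoid list, or its 2 most abundant where none was called, the 2 most abundant of each marker list, of which examples are given, and the 3 nearest patterns of 3 genes. A gene that this rule names is not reported here. The 9 genes, the lists and the rules were chosen with earlier results of these data known.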

Additional observations from a re-analysis of the deposited data

How the results depend on the processing

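The study's rule gave 286 features higher and 131 lower. With 1 knockdown library left out, and both remaining tables required, the count higher ranged from 12 to 272 and the count lower from 22 to 120. Marks in all 3 tables left 3 higher and 14 lower, and a log2 ratio of at least 1 in every marking table left 69 lower. The retinoic acid genes called lower ranged from 0 to 1, and the responsive genes called higher from 0 to 4, with both at 0 without knockdown 2 or without knockdown 3. Limma's counts of 3 higher and 12 lower ranged from 1 to 4 and from 5 to 24 with 1 library left out. They were 0 and 4 with no filter on low values and 0 and 7 with no trend in the prior variance, and a pseudocount of 0.1 gave 6 lower. The cause was not tested. Of 45 alternative means of the 9 genes, 44 stayed within 1 SD. The other was Cyp26c1 with a pseudocount of 0.1, and it rests on 1 read. In 5 the sign changed, all for Aldh1a2, Crabp2, Rara or Rarg with a library left out. Medians of the 3 other retinoid lists moved by less than their spread. No paired analysis was possible because the knockdown and control groups share only 1 replicate number.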
